A study of Mus musculus with 9 samples.

Results

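Collagens are the structural proteins of the extracellular matrix, and their genes were followed across RNA-seq libraries of mouse thyroid tissue. The members are all genes whose symbol has the form Col, a type number, the letter a and a chain number. That form matched 43 of the 33924 genes in the count table, and 40 of the 43 passed the filter on low counts and were tested. Col2a1, Col6a4 and Col19a1 did not pass. The gene now named Col26a1 is listed under its older symbol Emid2 and is outside the rule.

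The study compared thyroids of 3 genotypes with 3 libraries each, labelled Arid2 KO, Smarcb1 KO and Wildtype. The products of both genes belong to the chromatin remodeller SWI/SNF, and the series title places the work in the study of thyroid tumours. The labels give the genotype alone, with no age, strain, second allele, treatment or driver of the knockout for any group, wild type included. The deposited counts of all 9 libraries are named NonBraf, and the labels do not explain this name. They do not say that the 3 libraries of a group came from separate animals, so p-values measure the spread between libraries, which may be technical. Libraries are numbered 1 to 3 within a group, and the numbers pair nothing between groups. Total counts ran from 61179297 to 89553766 in Arid2-labelled libraries, from 38644867 to 41362640 in Smarcb1-labelled libraries and from 33666251 to 34045321 in wild-type libraries.

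A collagen is built from 3 chains that wind into a triple helix, and the chains can come from 1 gene or from several. Fibril-forming collagens such as types I, III and V give connective tissue its strength, whereas type IV forms the network of basement membranes. In the thyroid, a basement membrane surrounds each follicle and each capillary, and fibroblasts of the stroma make most of the fibrillar collagen. FACIT collagens sit on the surface of fibrils, type VI forms beaded filaments around cells, and multiplexins lie next to basement membranes.

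The labels were checked on the targeted genes first. Arid2 had 94.6, 77.7 and 59.9 CPM (read counts scaled by TMM to a common library size) in Arid2-labelled libraries, against 68.9, 74.96 and 67.8 CPM in wild-type libraries, so it was not lower there (log2 fold change 0.13 ± 0.16 SE, adjusted p = 0.745). Smarcb1 had 47.5, 53.7 and 59.4 CPM in Smarcb1-labelled libraries, against 65.9, 71.7 and 69.3 CPM in wild-type libraries, and missed the threshold (-0.36 ± 0.11, adjusted p = 0.0651). Its levels in Arid2-labelled libraries, 57.3, 59.4 and 64.6 CPM, were also all below wild type (-0.19 ± 0.11, adjusted p = 0.439). They overlapped those of the Smarcb1-labelled libraries (-0.17 ± 0.11 in Smarcb1-labelled against Arid2-labelled libraries, adjusted p = 0.265). Counts cover the whole gene and do not show single exons, and the groups are named by their labels throughout. Thyroglobulin, the main product of thyrocytes, took 24.1% to 30.8% of the counts of each library, so thyroid tissue was present in all 9. The tissue of neighbouring organs varied. The summed level of 3 parathyroid markers ranged from 6092 to 16992 CPM in Smarcb1-labelled libraries, from 10.6 to 1581 CPM in Arid2-labelled libraries and from 8.16 to 4320 CPM in wild-type libraries. The summed level of 8 thymocyte markers was 1270 CPM in Arid2-labelled library 1 and 216 CPM in Smarcb1-labelled library 2, against 6.36 to 16.8 CPM in the other 7 libraries.

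Collagen genes took 0.323%, 0.406% and 0.345% of all counts in Smarcb1-labelled libraries, 0.444%, 0.483% and 0.512% in Arid2-labelled libraries and 0.465%, 0.464% and 0.497% in wild-type libraries. Every Smarcb1-labelled library was below every library of both other groups, which overlapped each other. Per kilobase of transcript, Col3a1 of type III collagen had the highest level of the 43 genes, with a mean of 184 CPM per kilobase over the 9 libraries. It was followed by Col4a1 with 74.4, Col1a2 with 66.4, Col4a2 with 61.9 and Col6a2 with 47.2 CPM per kilobase. Col6a1 with 37.7, Col4a6 with 32.6, Col18a1 with 32.5, Col1a1 with 31.4 and Col15a1 with 23.8 CPM per kilobase completed the 10 highest. The order thus mixes fibrillar, basement membrane, type VI and multiplexin chains. The place of a gene depended on the group. Col18a1 averaged 18.97 ± 5.93 CPM per kilobase in Smarcb1-labelled, 43.3 ± 5.15 in Arid2-labelled and 35.1 ± 4.93 in wild-type libraries (SD, n = 3 each), while Col4a6, its neighbour in the order, averaged 33.02 ± 1.26, 32.7 ± 4.95 and 32.1 ± 2.59 CPM per kilobase in the same groups. At the low end, 15 of the 43 genes averaged under 1 CPM per kilobase.

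**Figure D1:**
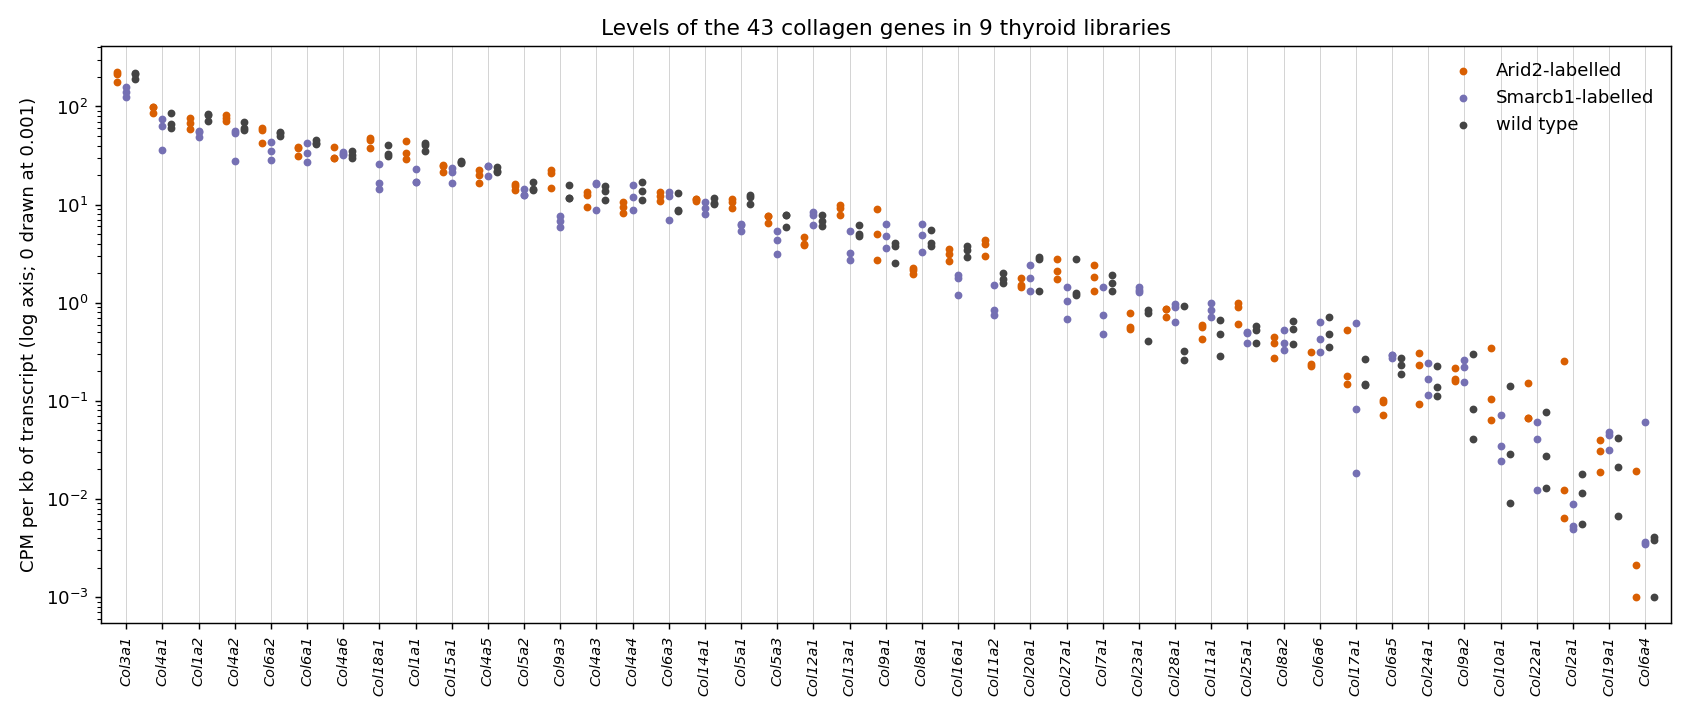
Level of each of the 43 collagen genes in each of the 9 libraries, in CPM per kilobase of transcript on a log axis. Genes are ordered by their mean over the 9 libraries, and points are coloured by genotype label. Values of 0 are drawn at 0.001. Col3a1 lies highest in every group, between 125 and 224 CPM per kilobase, and Col2a1, Col6a4 and Col19a1 are near the bottom.

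In Smarcb1-labelled against wild-type libraries, 7 of the 40 tested collagen genes passed the test and all 7 were lower. They encode chains of fibrillar collagens (Col1a1, Col1a2, Col5a1, Col5a3), fibril-associated chains (Col16a1, Col9a3) and the multiplexin Col18a1, and their log2 fold changes ran from -1.06 to -0.57. Of all 17079 genes tested, 7.9% passed in either direction, 5.74% lower and 2.15% higher. The 40 collagen genes had a median of -0.25 on the log2 scale, and all genes tested 0.05. The Smarcb1-labelled libraries were all below the wild-type libraries for 12 of the 40 and all above for 2, where 16.7% and 17.1% of all genes separated in those directions. The test was edgeR's quasi-likelihood F test with Benjamini-Hochberg adjustment over all genes, at a threshold of 0.05. Of the 40, 0 passed once the trend of counts over GC content was taken out of every library, 1 with the level of parathyroid markers as a covariate and 1 to 12 with 1 library left out. Over all genes these settings gave 1.74%, 1.15% and 1.97% to 14.7%. In bulk tissue, fewer cells of a type and less RNA per cell cannot be told apart.

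In Smarcb1-labelled against Arid2-labelled libraries, 14 of the 40 passed, 10 lower and 4 higher. The background was 16.3% of all genes, 9.32% lower and 6.95% higher. The lower genes were Col1a1, Col3a1, Col5a1, Col5a3, Col9a3, Col11a2, Col13a1, Col16a1, Col18a1 and Col25a1, and the higher ones were Col6a5, Col8a1, Col12a1 and Col23a1. On the log2 scale the medians were -0.24 for the collagen genes and 0.00 for all genes. The libraries separated without overlap for 16 genes downward and 6 upward, where 20.5% and 18.3% of all genes did so. With the GC trend removed 8 passed, with the parathyroid covariate 2, and with 1 library left out 4 to 17. Over all genes these settings gave 6.02%, 0.849% and 2.27% to 25.5%.

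In Arid2-labelled against wild-type libraries, 0 of the 40 passed edgeR's quasi-likelihood test, against 0.556% of all genes (0.322% lower, 0.234% higher). At an unadjusted p under 0.05, 9 of the 40 were found, against 14.9% of all genes, and the DESeq2 Wald test called 4, against 5.2% of all genes. The 4 were Col6a5, Col8a1 and Col12a1, lower, and Col11a2, higher. Medians on the log2 scale were 0.02 for the collagen genes and 0.02 for all genes. Arid2-labelled libraries were all below wild type for 7 members and all above for 5, where 12.6% and 12.9% of all genes separated. The 3 comparisons share libraries, so their values are given side by side and are not independent of each other.

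**Figure D2:**
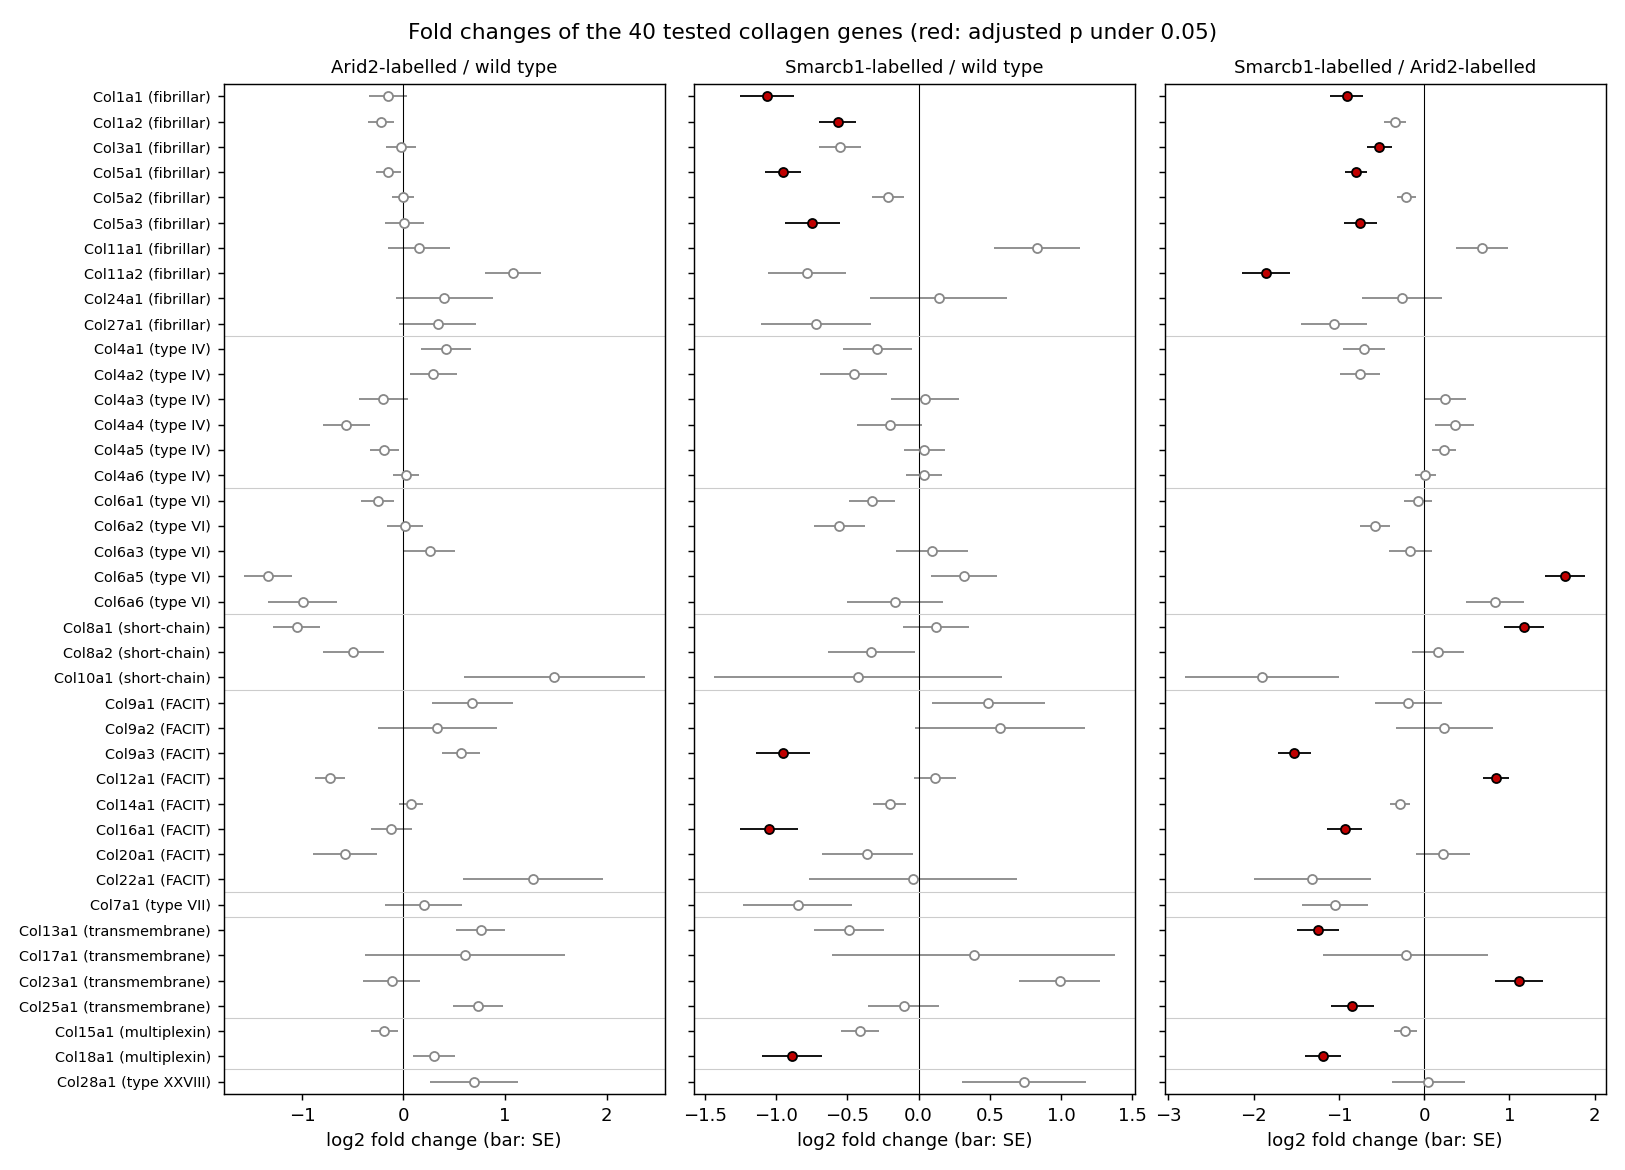
Log2 fold change with its standard error for each of the 40 tested collagen genes in the 3 comparisons, with filled points for genes past an adjusted p of 0.05. The 7 genes past the threshold in Smarcb1-labelled against wild-type libraries all lie below 0, and no point is filled in Arid2-labelled against wild-type libraries.

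Of the fibrillar class, which holds 11 genes with 10 tested, 4 were lower in Smarcb1-labelled than in wild-type libraries, with a class median of -0.64 on the log2 scale. Col1a1 and Col1a2 encode the chains of type I collagen, the main fibril of most connective tissue. Col1a1 had 100.2, 137 and 99.8 CPM in Smarcb1-labelled libraries, 171, 197 and 266 CPM in Arid2-labelled libraries and 239, 211 and 254 CPM in wild-type libraries. Its Smarcb1-labelled libraries overlapped neither other group. The log2 fold change was -1.06 ± 0.19 (SE) against wild type (adjusted p = 0.0159) and -0.91 ± 0.19 against the Arid2-labelled group (adjusted p = 0.0179). Col1a2 had 298, 294 and 259.8 CPM in Smarcb1-labelled libraries, 315, 359 and 409 CPM in Arid2-labelled libraries and 437, 382 and 444 CPM in wild-type libraries. Its log2 fold change was -0.57 ± 0.13 against wild type (adjusted p = 0.0320) and -0.35 ± 0.13 against the Arid2-labelled group (adjusted p = 0.0889). Col3a1 of type III collagen, which makes up thin reticular fibres, had 883, 784 and 695 CPM in Smarcb1-labelled libraries, 978, 1244 and 1183 CPM in Arid2-labelled libraries and 1196, 1056 and 1210.2 CPM in wild-type libraries. Smarcb1-labelled libraries were the 3 lowest for Col3a1 too. The difference from wild type missed the threshold (-0.55 ± 0.15, adjusted p = 0.0518), and that from the Arid2-labelled group passed (-0.53 ± 0.15, adjusted p = 0.0409).

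Type V collagen nucleates and limits the width of type I fibrils. Col5a1 had 45.2, 51.6 and 53.5 CPM in Smarcb1-labelled libraries, 76.7, 90.1 and 94.9 CPM in Arid2-labelled libraries and 99.9, 85.1 and 105 CPM in wild-type libraries. The Smarcb1-labelled libraries were tightly grouped and below all others. Col5a1 had the smallest adjusted p of the family against wild type (-0.95 ± 0.13, adjusted p = 0.00582) and also passed against the Arid2-labelled group (-0.80 ± 0.13, adjusted p = 0.00805). Its exons overlap those of 2810430I11Rik and Gm13372 on the opposite strand by 99 and 113 of 8490 bases, which may affect a few reads. Col5a3, a rarer type V chain, had 19.2, 32.6 and 26.96 CPM in Smarcb1-labelled libraries, 39.3, 46.8 and 46.6 CPM in Arid2-labelled libraries and 48.1, 36.3 and 47.7 CPM in wild-type libraries. It was lower in both comparisons of Smarcb1-labelled libraries, with -0.75 ± 0.19 against wild type (adjusted p = 0.0490) and -0.75 ± 0.19 against the Arid2-labelled group (adjusted p = 0.0334). The difference of Col5a3 from wild type passed in 1 of the 9 fits with 1 library left out, and with the GC trend removed its values were -0.019 against wild type (adjusted p = 0.961) and -0.011 against the Arid2-labelled group (adjusted p = 0.972). The partner chain Col5a2 had 94.8, 83.9 and 82.9 CPM in Smarcb1-labelled libraries, 94.2, 103 and 106 CPM in Arid2-labelled libraries and 114, 94.2 and 95.9 CPM in wild-type libraries, with overlapping groups and -0.21 ± 0.11 against wild type (adjusted p = 0.229). Col5a2 lies next to Col3a1 on chromosome 1.

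Types XI, XXIV and XXVII are minor fibrillar collagens, best known from cartilage and bone. Col11a2 had 5.06, 9.26 and 4.52 CPM in Smarcb1-labelled libraries, 26.3, 24.2 and 17.9 CPM in Arid2-labelled libraries and 9.68, 10.6 and 12.2 CPM in wild-type libraries. The 3 groups did not overlap at all for Col11a2, with the Arid2-labelled libraries highest. Smarcb1-labelled libraries were lower than Arid2-labelled libraries (-1.86 ± 0.28, adjusted p = 0.00739). Neither group passed against wild type, with -0.78 ± 0.27 in Smarcb1-labelled (adjusted p = 0.105) and 1.08 ± 0.27 in Arid2-labelled libraries (adjusted p = 0.118). Col11a1, its usual partner, had 5.47, 7.63 and 6.47 CPM in Smarcb1-labelled libraries, 3.28, 4.55 and 4.39 CPM in Arid2-labelled libraries and 3.70, 5.09 and 2.20 CPM in wild-type libraries, with positive values in Smarcb1-labelled libraries that missed the threshold (0.83 ± 0.30 against wild type, adjusted p = 0.115). Col24a1, at 0.657 to 2.20 CPM, and Col27a1, at 5.24 to 21.4 CPM, passed in none of the comparisons. Col2a1, the main collagen of cartilage, was counted 1, 2 and 1 times in Smarcb1-labelled libraries, 3, 4 and 81 times in Arid2-labelled libraries and 3, 1 and 2 times in wild-type libraries. The 81 counts in Arid2-labelled library 3 stood beside 56 counts of the cartilage proteoglycan Acan, which had 3 to 19 counts in the other knockout-labelled libraries and 0 or 1 in wild-type libraries. The summed level of 8 cartilage markers was 123 to 260.4 CPM in Smarcb1-labelled, 117 to 148 CPM in Arid2-labelled and 118 to 131 CPM in wild-type libraries, with 0 to 3 of the markers at 0 in a library. Sox9 alone gave 69.6 to 131 CPM of it in every library. Lect1 gave 181 and 113 CPM in Smarcb1-labelled libraries 1 and 3, against 1.82 to 9.42 CPM in all other libraries. Arid2-labelled library 3, highest for Col2a1 and Acan, had the lowest sum. The part of the cartilage markers in these values was not tested.

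Promoter windows of Col5a1 and Col3a1 are shown because these fibrillar genes differ widely in base composition around their starts. The windows run from 250 bases before to 50 bases after the RefSeq start (build GRCm38.p6), for Col5a1 at chr2:27886175-27886474 and for Col3a1 at chr1:45311288-45311587, both on the plus strand. Capitals in Col5a1 mark the GC box GGGCGG on either strand, whose first bases lie at -205 and -73 relative to the start, and capitals in Col3a1 mark TATAAA at -117.
Col5a1: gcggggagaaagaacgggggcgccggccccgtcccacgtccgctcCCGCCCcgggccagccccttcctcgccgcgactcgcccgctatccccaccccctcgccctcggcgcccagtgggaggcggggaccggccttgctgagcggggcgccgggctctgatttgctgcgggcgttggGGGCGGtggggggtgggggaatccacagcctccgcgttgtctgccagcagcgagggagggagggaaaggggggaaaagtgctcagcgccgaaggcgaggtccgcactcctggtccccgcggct
Col3a1: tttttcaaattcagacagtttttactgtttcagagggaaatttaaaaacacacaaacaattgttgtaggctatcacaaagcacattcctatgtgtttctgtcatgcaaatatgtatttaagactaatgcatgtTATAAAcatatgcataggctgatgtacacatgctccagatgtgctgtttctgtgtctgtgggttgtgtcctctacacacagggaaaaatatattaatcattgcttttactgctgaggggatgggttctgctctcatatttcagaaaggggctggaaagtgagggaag
RefSeq windows were matched for 35 of the 43 members, with 38 windows in all. GGGCGG on either strand was in 60.5% of the 38 windows, against 35.7% of 32851 windows of all genes. CCAAT was in 34.2%, against 37.4%, and TATAAA in 13.2%, against 13.6%. The median GC content of the windows was 59.8% for the members, against 52.7% for all genes. These matches describe letters and name no bound factor.

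Type IV collagen, the network former of basement membranes, has 6 chains in 3 neighbouring pairs: Col4a1 with Col4a2 on chromosome 8, Col4a3 with Col4a4 on chromosome 1 and Col4a5 with Col4a6 on chromosome X. None of the 6 passed edgeR's test in any of the 3 comparisons. Col4a1 had 239, 489.8 and 420.4 CPM in Smarcb1-labelled libraries, 572, 653 and 649 CPM in Arid2-labelled libraries and 436, 401 and 567 CPM in wild-type libraries. Col4a2 had 179, 365 and 342 CPM in Smarcb1-labelled libraries, 464, 497 and 529.8 CPM in Arid2-labelled libraries and 391, 374 and 451 CPM in wild-type libraries. Every Smarcb1-labelled value of Col4a2 was below wild type, and the Smarcb1-labelled values of Col4a1 overlapped it. Both chains were higher in every Arid2-labelled library than in every wild-type library, and their Smarcb1-labelled values spread most widely, with library 1 lowest. Smarcb1-labelled against Arid2-labelled libraries had -0.71 ± 0.25 for Col4a1 (adjusted p = 0.0768) and -0.75 ± 0.24 for Col4a2 (adjusted p = 0.0582). Arid2-labelled against wild-type libraries had 0.42 ± 0.24 for Col4a1 (adjusted p = 0.472) and 0.29 ± 0.23 for Col4a2 (adjusted p = 0.606). Both chains are made by endothelial cells as well as by other cells, and the summed level of 10 endothelial markers was 823 to 1043 CPM in Arid2-labelled libraries, 482 to 838 CPM in Smarcb1-labelled libraries and 478 to 647 CPM in wild-type libraries. Smarcb1-labelled library 1 was also the lowest of its group for these markers, and their part in the Col4a1 and Col4a2 values was not tested.

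Col4a1 and Col4a2 are transcribed away from each other from starts so close that their windows share 78 bases, chr8:11312777-11312854. The windows are chr8:11312777-11313076 on the minus strand for Col4a1 and chr8:11312555-11312854 on the plus strand for Col4a2 (RefSeq, GRCm38.p6). Each is written 5′ to 3′ on its own gene's strand, and capitals mark the shared bases, which are the reverse complement of each other.
Col4a1: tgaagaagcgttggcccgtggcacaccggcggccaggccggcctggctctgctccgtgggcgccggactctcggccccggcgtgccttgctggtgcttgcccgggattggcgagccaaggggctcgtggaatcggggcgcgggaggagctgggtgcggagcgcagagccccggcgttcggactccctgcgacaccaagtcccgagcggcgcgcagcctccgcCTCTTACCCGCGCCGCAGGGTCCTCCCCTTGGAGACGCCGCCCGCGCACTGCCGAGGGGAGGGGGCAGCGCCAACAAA
Col4a2: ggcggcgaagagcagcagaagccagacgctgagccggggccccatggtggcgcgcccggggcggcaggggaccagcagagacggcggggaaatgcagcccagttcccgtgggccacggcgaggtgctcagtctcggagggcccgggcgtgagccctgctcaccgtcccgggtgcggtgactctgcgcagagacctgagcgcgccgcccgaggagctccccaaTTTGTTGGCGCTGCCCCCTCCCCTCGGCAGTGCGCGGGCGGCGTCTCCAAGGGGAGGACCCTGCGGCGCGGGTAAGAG
Exons of the pair overlap by 22 bases on opposite strands in the GENCODE annotation, so a few reads of one may have been counted to the other.

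The other 4 chains of type IV lie in pairs on chromosomes 1 and X. Col4a3 had 141, 76.02 and 139 CPM in Smarcb1-labelled libraries, 107, 114 and 80.3 CPM in Arid2-labelled libraries and 132, 96.4 and 117 CPM in wild-type libraries. Col4a4 had 120.3, 88.5 and 160.1 CPM in Smarcb1-labelled libraries, 96.5, 108 and 82.996 CPM in Arid2-labelled libraries and 173, 140.2 and 112 CPM in wild-type libraries. All Arid2-labelled libraries were below all wild-type libraries for Col4a4, without passing the test (-0.56 ± 0.23, adjusted p = 0.296). Col4a3 shares 563 of its 9967 exon bases with a non-coding transcript on the opposite strand, so its count is uncertain. Col4a5 had 163, 128 and 161 CPM in Smarcb1-labelled libraries, 129.9, 148 and 108 CPM in Arid2-labelled libraries and 140.3, 157 and 142 CPM in wild-type libraries. Col4a6 had 216, 229 and 213 CPM in Smarcb1-labelled libraries, 196, 255 and 201 CPM in Arid2-labelled libraries and 213, 231 and 197 CPM in wild-type libraries. The groups overlapped for Col4a5 and Col4a6, and Col4a6 had 0.03 ± 0.13 in Arid2-labelled and 0.04 ± 0.13 in Smarcb1-labelled against wild-type libraries.

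**Figure D3:**
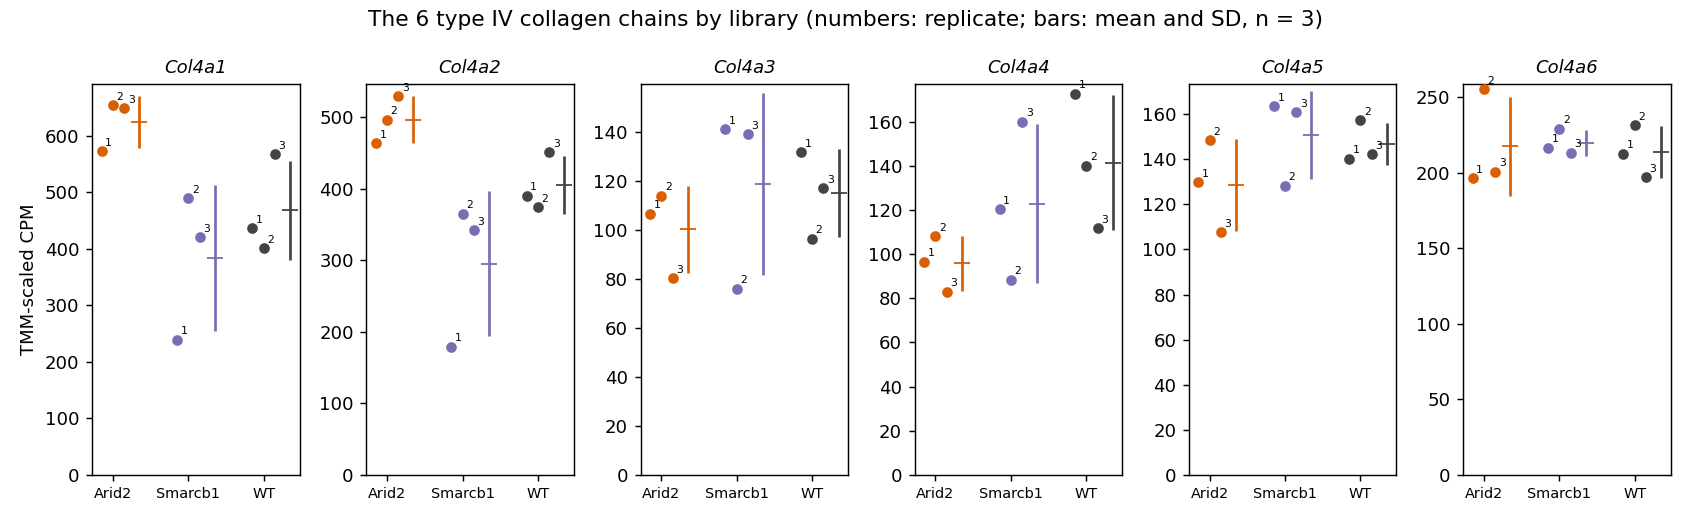
Level of the 6 type IV collagen chains in CPM by genotype label, with 1 point per library and the mean and SD of each group. Col4a1 and Col4a2 show the same order of libraries within the Smarcb1-labelled group, from 239 and 179 CPM in library 1 to 489.8 and 365 CPM in library 2, while the groups overlap for Col4a5 and Col4a6.

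Type VI collagen forms beaded filaments around cells from the chains of Col6a1, Col6a2 and Col6a3, with Col6a5 and Col6a6 as rarer chains. Col6a1 and Col6a2, neighbours on chromosome 10, passed in none of the comparisons. Col6a1 had 111, 172 and 137 CPM in Smarcb1-labelled libraries, 127, 159.8 and 155 CPM in Arid2-labelled libraries and 172, 169 and 186 CPM in wild-type libraries. Col6a2 had 134, 203 and 163 CPM in Smarcb1-labelled libraries, 196, 281 and 266 CPM in Arid2-labelled libraries and 230.2, 256 and 249 CPM in wild-type libraries. The nearest to the threshold was Col6a2 in Smarcb1-labelled against Arid2-labelled libraries (-0.57 ± 0.18, adjusted p = 0.0560). Against wild type, Col6a2 had -0.56 ± 0.18 in Smarcb1-labelled libraries (adjusted p = 0.0833). Col6a3 had overlapping groups throughout, between 70.3 and 137 CPM. Col6a5 had 2.75, 2.74 and 2.52 CPM in Smarcb1-labelled libraries, 0.913, 0.673 and 0.948 CPM in Arid2-labelled libraries and 2.52, 1.74 and 2.17 CPM in wild-type libraries. The Arid2-labelled libraries were the 3 lowest. Col6a5 was higher in Smarcb1-labelled than in Arid2-labelled libraries (1.66 ± 0.24, adjusted p = 0.00629), and its value in Arid2-labelled against wild-type libraries just missed the threshold (-1.34 ± 0.24, adjusted p = 0.0506). Col6a6, its neighbour on chromosome 9, had 5.65, 3.76 and 2.79 CPM in Smarcb1-labelled libraries, 2.003, 2.10 and 2.76 CPM in Arid2-labelled libraries and 6.34, 4.24 and 3.08 CPM in wild-type libraries, with -0.99 ± 0.34 in Arid2-labelled against wild-type libraries (adjusted p = 0.213). Col6a4 had 20 counts or fewer in every library.

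The 9 FACIT genes, 8 of them tested, held genes past the threshold in both directions. Col9a3, a chain of type IX collagen, had 17.9, 23.3 and 20.6 CPM in Smarcb1-labelled libraries, 68.5, 63.5 and 45.3 CPM in Arid2-labelled libraries and 35.6, 35.7 and 48.3 CPM in wild-type libraries. It was lower in Smarcb1-labelled libraries than in wild-type libraries (-0.95 ± 0.19, adjusted p = 0.0216) and than in Arid2-labelled libraries (-1.52 ± 0.19, adjusted p = 0.00448). Its partner chains did not pass: Col9a1 had 18.2, 13.8 and 24.1 CPM in Smarcb1-labelled libraries, 19.3, 34.2 and 10.4 CPM in Arid2-labelled libraries and 14.5, 9.76 and 15.7 CPM in wild-type libraries, and Col9a2 stayed under 1 CPM in every library. The exons of Col9a3 overlap those of Tcfl5 on the opposite strand by 234 of 3853 bases, so its count is uncertain. Col16a1, a collagen of fibril surfaces and cell junctions, had 6.18, 10.003 and 9.20 CPM in Smarcb1-labelled libraries, 13.8, 16.5 and 18.2 CPM in Arid2-labelled libraries and 15.3, 19.6 and 17.8 CPM in wild-type libraries. Smarcb1-labelled libraries were lower in both comparisons, with -1.05 ± 0.20 against wild type (adjusted p = 0.0204) and -0.93 ± 0.20 against the Arid2-labelled group (adjusted p = 0.0205). Col12a1, which links fibrils in stretched tissue, had 97.3, 70.6 and 89.7 CPM in Smarcb1-labelled libraries, 45.6, 53.6 and 44.7 CPM in Arid2-labelled libraries and 78.2, 90.6 and 68.9 CPM in wild-type libraries. The Arid2-labelled libraries were the 3 lowest for Col12a1. Smarcb1-labelled libraries were higher than these (0.84 ± 0.15, adjusted p = 0.0123), while Arid2-labelled against wild-type libraries missed the threshold (-0.72 ± 0.15, adjusted p = 0.0744). Col14a1, Col20a1 and Col22a1 passed in none, with values between -1.31 and 1.27 on the log2 scale.

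Of the multiplexins, Col18a1, the precursor of the anti-angiogenic fragment endostatin, had 81.2, 144 and 93.4 CPM in Smarcb1-labelled libraries, 253, 209.5 and 264 CPM in Arid2-labelled libraries and 228, 186 and 176 CPM in wild-type libraries. It was lower in Smarcb1-labelled libraries than in wild type (-0.89 ± 0.21, adjusted p = 0.0384) and than in the Arid2-labelled group (-1.19 ± 0.21, adjusted p = 0.0121). The difference of Col18a1 from wild type passed in 1 of the 9 fits with 1 library left out, and with the GC trend removed it was -0.25 (adjusted p = 0.341). Col15a1, the other multiplexin, had 85.4, 109.9 and 122 CPM in Smarcb1-labelled libraries, 112, 129 and 128 CPM in Arid2-labelled libraries and 138, 144 and 139.8 CPM in wild-type libraries. Every wild-type library was above every knockout-labelled library for Col15a1, without passing the test (-0.41 ± 0.13 in Smarcb1-labelled against wild-type libraries, adjusted p = 0.0876).

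The 4 transmembrane collagens are anchored in the cell membrane. Col13a1, found at cell-matrix contacts, had 8.65, 17.04 and 10.2 CPM in Smarcb1-labelled libraries, 24.5, 29.2 and 31.6 CPM in Arid2-labelled libraries and 19.6, 15.03 and 15.7 CPM in wild-type libraries. Col25a1, a neuronal collagen, had 3.41, 3.28 and 2.63 CPM in Smarcb1-labelled libraries, 4.12, 6.59 and 6.01 CPM in Arid2-labelled libraries and 3.88, 2.62 and 3.53 CPM in wild-type libraries. Both were lower in Smarcb1-labelled than in Arid2-labelled libraries, with -1.25 ± 0.25 for Col13a1 (adjusted p = 0.0160) and -0.84 ± 0.25 for Col25a1 (adjusted p = 0.0481). Col23a1 went the other way, with 8.14, 7.60 and 7.31 CPM in Smarcb1-labelled libraries, 3.17, 3.07 and 4.45 CPM in Arid2-labelled libraries and 4.46, 4.81 and 2.31 CPM in wild-type libraries. Its Smarcb1-labelled libraries were above all others (1.11 ± 0.28 against the Arid2-labelled group, adjusted p = 0.0328), and the difference from wild type missed the threshold (0.99 ± 0.28, adjusted p = 0.0637). Col17a1, part of epithelial hemidesmosomes, passed in none.

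Of the short-chain, network-forming collagens, Col8a1 of vessel walls had 25.03, 16.8 and 32.3 CPM in Smarcb1-labelled libraries, 11.1, 10.1 and 11.6 CPM in Arid2-labelled libraries and 19.4, 28.2 and 20.6 CPM in wild-type libraries. It was higher in Smarcb1-labelled than in Arid2-labelled libraries (1.17 ± 0.24, adjusted p = 0.0166), with the Arid2-labelled libraries below all wild-type libraries (-1.05 ± 0.24, adjusted p = 0.0918). Col8a2 and Col10a1, a collagen of growth-plate cartilage, passed in none. Col7a1, which forms the anchoring fibrils below epithelia, and Col28a1 passed in none either.

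Chains of 1 collagen assemble in set proportions, so their count ratios were compared within libraries, where library size has no effect. The ratio of Col1a1 to Col1a2 counts was 0.336, 0.467 and 0.384 in Smarcb1-labelled libraries, against 0.547, 0.551 and 0.572 in wild-type libraries. All 3 were below wild type, a log2 difference of -0.51, at the smallest p that 3 libraries against 3 allow (exact two-sided permutation p = 0.1, adjusted over 10 tests 0.2). The ratio of Col5a1 to Col5a2 was 0.477, 0.614 and 0.645 in Smarcb1-labelled libraries, against 0.879, 0.903 and 1.10 in wild-type libraries, and also separated without overlap (log2 difference -0.74, exact permutation p = 0.1, adjusted 0.2). In both pairs the chain whose share was lower than in wild type has the higher GC content. For Col6a1 to Col6a2, which also separated from wild type in Smarcb1-labelled libraries, it was the reverse. There the share of Col6a2 was lower, and its GC content is 56.2%, against 56.7% for Col6a1. In Arid2-labelled libraries the ratios were 0.543, 0.549 and 0.649 for type I (0.06, exact permutation p = 0.9) and 0.815, 0.879 and 0.894 for type V (-0.15, exact permutation p = 0.2). The ratio of Col6a1 to Col6a2 averaged 0.839 ± 0.0118 in Smarcb1-labelled, 0.6002 ± 0.0424 in Arid2-labelled and 0.719 ± 0.0498 in wild-type libraries (SD, n = 3 each). The 3 groups did not overlap, with wild type between the others (exact permutation p = 0.1 for each). The ratio of Col6a1 to Col6a3 averaged 1.19 ± 0.0569 in Arid2-labelled against 1.75 ± 0.311 in wild-type libraries (exact permutation p = 0.1), and 1.32 ± 0.296 in Smarcb1-labelled libraries (exact permutation p = 0.3). The ratio of Col4a1 to Col4a2 averaged 1.30 ± 0.0634 in Smarcb1-labelled, 1.26 ± 0.0503 in Arid2-labelled and 1.15 ± 0.0974 in wild-type libraries, with overlap (exact permutation p = 0.2 and 0.3 against wild type). None of the 10 tests can pass 0.05 in this design.

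**Figure D4:**
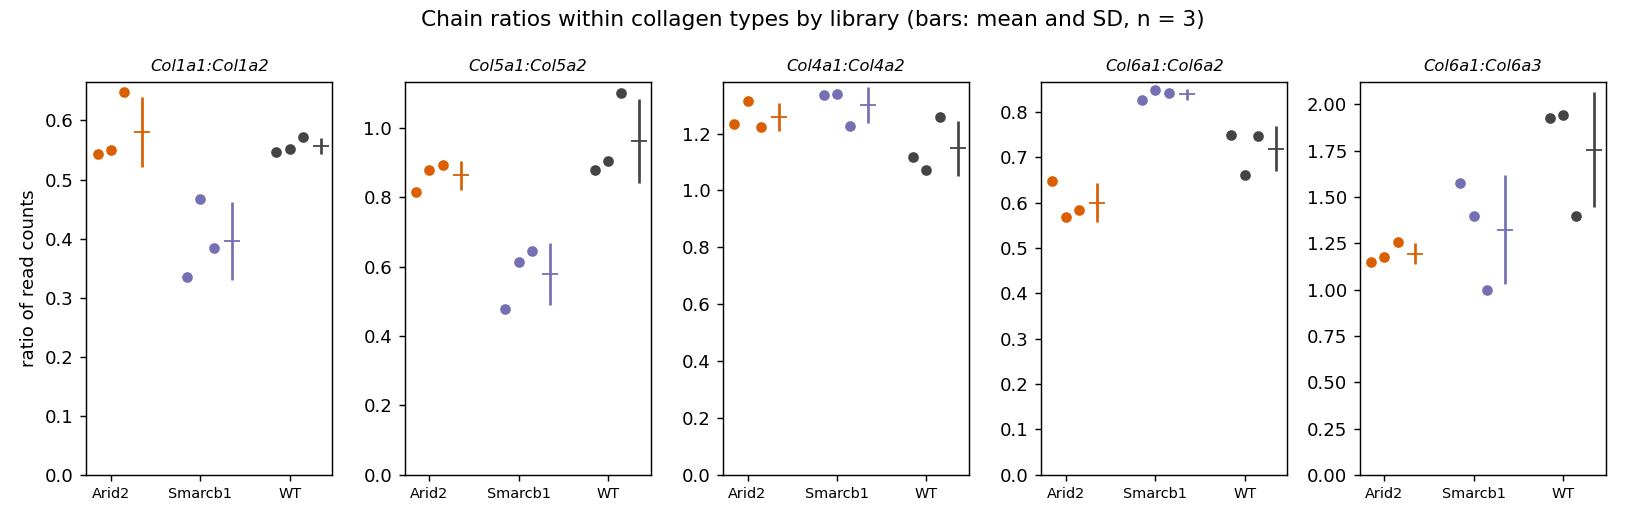
Count ratio of 2 chains of the same collagen in each library, by genotype label, for 5 pairs, with 1 point per library and a bar at the group mean. The Smarcb1-labelled libraries lie below wild type for Col1a1 to Col1a2 and for Col5a1 to Col5a2, and above wild type for Col6a1 to Col6a2.

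The values in Smarcb1-labelled libraries moved with the GC content of the transcripts. GC content was taken from the longest GENCODE transcript of each gene on GRCm38 and ran from 45.9% for Col25a1 to 62.9% for Col11a2 over the 40 tested members. In Smarcb1-labelled against wild-type libraries, the 7 members above 60% GC had a median log2 fold change of -0.78, the 25 members from 50% to 60% one of -0.33 and the 8 members under 50% one of 0.12. Across the 40 members, which share the same libraries, Pearson's r between GC content and log2 fold change was -0.57 and Spearman's rho -0.64. Across 16617 genes it was -0.45 and -0.57, and the median over the 762 genes above 60% GC was -0.73. In Smarcb1-labelled against Arid2-labelled libraries, r was -0.50 over the members and -0.42 over all genes. In Arid2-labelled against wild-type libraries, r was 0.19 over the members and 0.05 over all genes. When each library's trend over GC content was removed, 0 collagen genes passed in Smarcb1-labelled against wild-type libraries, where 1.74% of all genes passed. Col5a1 then had -0.55 (adjusted p = 0.0724), Col1a1 -0.59 (adjusted p = 0.0769) and Col23a1 1.19 (adjusted p = 0.0767). Col9a3 had -0.45 (adjusted p = 0.280), Col16a1 -0.33 (adjusted p = 0.227) and Col1a2 -0.33 (adjusted p = 0.256). In Smarcb1-labelled against Arid2-labelled libraries, 8 collagen genes passed, against 6.02% of all genes, namely Col9a3, Col11a2, Col13a1 and Col25a1, lower, and Col6a5, Col8a1, Col12a1 and Col23a1, higher. In Arid2-labelled against wild-type libraries, Col6a5 with -1.41 (adjusted p = 0.0251) and Col12a1 with -0.79 (adjusted p = 0.0453) passed, against 1.43% of all genes. The source of the relation with GC content was not tested.

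**Figure D5:**
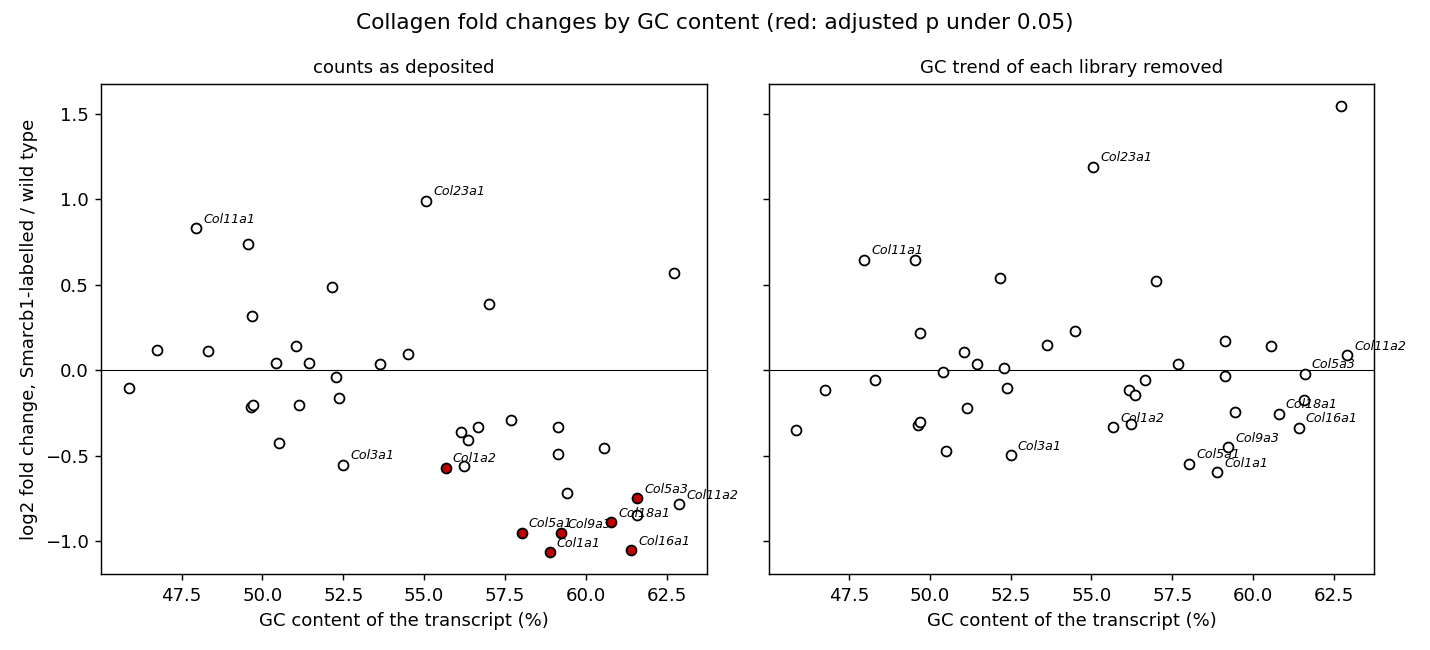
Log2 fold change of each tested collagen gene in Smarcb1-labelled against wild-type libraries, by the GC content of its transcript in percent. The left panel uses the counts as deposited, and the right panel has the GC trend of each library removed. Red points are past an adjusted p of 0.05. In the left panel the points slope down, with r = -0.57, and in the right panel no point is red.

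Marker levels of other cells also differed beside these results. The summed level of the 10 fibroblast markers was 1966 to 2118 CPM in Smarcb1-labelled libraries, 1816 to 1946 CPM in Arid2-labelled libraries and 2218 to 2730 CPM in wild-type libraries, with no marker at 0. Gsn alone gave 717 to 1220.4 CPM of it in Smarcb1-labelled, 979 to 1184 CPM in Arid2-labelled and 1145 to 1521 CPM in wild-type libraries. The other 9 markers summed to 852 to 1401 CPM in Smarcb1-labelled, 751 to 838 CPM in Arid2-labelled and 1073 to 1209 CPM in wild-type libraries. Dcn alone gave 830 CPM of the 1401 in Smarcb1-labelled library 1. Thy1 had 176 CPM in Arid2-labelled library 1 and 68.5 CPM in Smarcb1-labelled library 2, the 2 rich in thymocyte markers. It had 32.2 to 52.3 CPM in all other libraries. Wild type was above both other groups for the sum of all 10 markers, but without Gsn the Smarcb1-labelled libraries lay on both sides of it. In Smarcb1-labelled against wild-type libraries 7 of the 10 had negative and 3 positive log2 fold changes, with a median of -0.15. In Arid2-labelled against wild-type libraries 9 were negative and 1 positive, with a median of -0.43. In Smarcb1-labelled against Arid2-labelled libraries 4 were negative and 6 positive, with a median of 0.19. The part of these cells in the collagen values was not tested. Of the 10 markers, 1 was lower in Smarcb1-labelled against wild-type libraries (Clec3b, -1.20 ± 0.18, adjusted p = 0.00804) and 1 in Arid2-labelled against wild-type libraries (Fbln1, -1.003 ± 0.16, adjusted p = 0.0370). When the level of the parathyroid markers entered the fit as a covariate, 1 collagen gene passed in Smarcb1-labelled against wild-type libraries, Col5a1 with -0.80 (adjusted p = 0.0364), against 1.15% of all genes. In the comparison with the Arid2-labelled group 2 passed, Col9a3 with -1.51 (adjusted p = 0.0391) and Col6a5 with 1.80 (adjusted p = 0.0472), against 0.849% of all genes. All 3 Smarcb1-labelled libraries had more parathyroid marker RNA than the libraries of both other groups, so this covariate and the genotype label cannot be fully told apart. Without the 2 libraries rich in thymocyte markers, 12 collagen genes passed in Smarcb1-labelled against wild-type libraries, where 12.6% of all genes did, and 19 against the Arid2-labelled group, where 21.9% did.

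The count of calls changed when 1 library was left out, for collagen genes and for all genes alike. Each such fit also rests on fewer libraries, and the source of the changes was not tested. In Smarcb1-labelled against wild-type libraries, 7 collagen genes passed with all libraries, where 7.9% of all genes did. The count was 2 without Smarcb1-labelled library 1, 12 without library 2 and 1 without library 3. Of all genes, 4.13%, 14.7% and 1.97% passed in these fits. The collagen count was 2, 3 and 3 without wild-type library 1, 2 or 3, beside 2.12%, 3.11% and 3.12% of all genes. Without Arid2-labelled library 1, 2 or 3 it was 5, 4 and 5, beside 6.07%, 3.76% and 6.27%. Col5a1 passed in all 9 of these fits. Against the Arid2-labelled group, 14 passed with all libraries, where 16.3% of all genes did. The count was 8, 17 and 6 without Smarcb1-labelled library 1, 2 or 3, beside 6.13%, 25.5% and 5.47% of all genes. Without Arid2-labelled library 1, 2 or 3 it was 14, 7 and 4, beside 10.2%, 4.58% and 2.27%. Col6a5, Col9a3, Col11a2 and Col5a1 passed in all 9 fits there.

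Genes that fold, process, bind and control collagen were followed beside the collagen genes. The counts stand beside 5.74% of all genes lower and 2.15% higher in Smarcb1-labelled against wild-type libraries, and 9.32% lower and 6.95% higher against the Arid2-labelled group. List medians in Smarcb1-labelled against wild-type libraries were -0.12 on the log2 scale for folding, -0.57 for processing, -0.05 for receptors, -0.08 for matrix genes and -0.02 for regulators, against 0.05 for all genes. Against the Arid2-labelled group they were -0.09, -0.10, -0.06, -0.08 and 0.27 in that order, and 0.00 for all genes. Of 17 tested genes for folding and modification in the endoplasmic reticulum, 2 were higher and 2 lower in Smarcb1-labelled than in wild-type libraries. Plod2, which hydroxylates lysines for cross-links, had 90.9, 78.6 and 88.1 CPM in Smarcb1-labelled libraries, against 58.8, 52.6 and 61.5 CPM in wild-type libraries (0.58 ± 0.13, adjusted p = 0.0346). Glt25d2, a collagen galactosyltransferase, had 52.2, 40.9 and 43.5 CPM in Smarcb1-labelled libraries, against 20.3, 26.9 and 17.7 CPM in wild-type libraries (1.07 ± 0.20, adjusted p = 0.0186). These were the 2 that rose. The prolyl 3-hydroxylase gene Leprel2 had 9.67, 11.3 and 11.2 CPM in Smarcb1-labelled libraries, against 15.8, 19.4 and 14.9 CPM in wild-type libraries (-0.64 ± 0.15, adjusted p = 0.0332). Crtap, a partner of prolyl 3-hydroxylation, had 23.1, 26.2 and 30.6 CPM in Smarcb1-labelled libraries, against 35.9, 42.3 and 42.03 CPM in wild-type libraries (-0.59 ± 0.14, adjusted p = 0.0384). In the comparison with the Arid2-labelled group 4 were higher, Leprel1 (1.52 ± 0.26, adjusted p = 0.0106), Glt25d2 (0.84 ± 0.20, adjusted p = 0.0275), Plod2 (0.55 ± 0.13, adjusted p = 0.0275) and P4ha1 (0.32 ± 0.09, adjusted p = 0.0438). The collagen chaperone gene Serpinh1 was lower, with 88.9, 114 and 117 CPM in Smarcb1-labelled libraries, against 142, 155 and 194 CPM in Arid2-labelled libraries (-0.62 ± 0.17, adjusted p = 0.0387).

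Of 7 tested genes for procollagen processing outside the cell, 3 were lower in Smarcb1-labelled than in wild-type libraries and none was higher. Bmp1, the protease that removes the C-terminal propeptide, had 37.9, 47.7 and 48.2 CPM in Smarcb1-labelled libraries, against 70.9, 62.2 and 65.2 CPM in wild-type libraries (-0.57 ± 0.12, adjusted p = 0.0280). Pcolce, which enhances that cleavage, had 52.1, 68.1 and 57.8 CPM in Smarcb1-labelled libraries, against 90.8, 101 and 114 CPM in wild-type libraries (-0.78 ± 0.14, adjusted p = 0.0175). Adamts2, the protease of the N-terminal propeptide, had 21.96, 22.7 and 26.9 CPM in Smarcb1-labelled libraries, against 38.6, 32.7 and 42.7 CPM in wild-type libraries (-0.67 ± 0.13, adjusted p = 0.0205). Each of the 3 separated from wild type without overlap, as 16.7% of all genes did in that direction. Against the Arid2-labelled group, Pcolce (-0.52 ± 0.14, adjusted p = 0.0408) and Bmp1 (-0.43 ± 0.12, adjusted p = 0.0432) were lower.

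Of 9 tested collagen receptors, Mrc2, which takes up collagen fragments, was lower in Smarcb1-labelled than in wild-type libraries (-0.69 ± 0.16, adjusted p = 0.0373) and none was higher. Against the Arid2-labelled group, Ddr1, a collagen receptor kinase of epithelia, was lower (-0.77 ± 0.18, adjusted p = 0.0277) and Ddr2, its relative in stromal cells, was higher (0.46 ± 0.13, adjusted p = 0.0462). Of 12 collagen-binding matrix genes, Postn rose in Smarcb1-labelled libraries, with 539, 126 and 264 CPM in Smarcb1-labelled libraries, against 75.5, 90.7 and 117 CPM in wild-type libraries (1.71 ± 0.44, adjusted p = 0.0475), and none fell. Postn was highest in Smarcb1-labelled library 1, without which it had 1.04 (adjusted p = 0.110), and it passed in 1 of the 9 fits with 1 library left out. Against the Arid2-labelled group, Lum, a proteoglycan of fibrils, was higher (1.31 ± 0.23, adjusted p = 0.0114) and Tnxb was lower (-0.97 ± 0.23, adjusted p = 0.0276). Of 12 regulators, the tendon transcription factor gene Scx was lower in Smarcb1-labelled libraries, with 7.33, 8.42 and 4.95 CPM in Smarcb1-labelled libraries, against 25.3, 22.5 and 16.3 CPM in wild-type libraries (-1.63 ± 0.27, adjusted p = 0.0122). The growth factor gene Ctgf was higher against the Arid2-labelled group, with 189, 346 and 215 CPM in Smarcb1-labelled libraries, against 63.9, 103 and 64.1 CPM in Arid2-labelled libraries (1.70 ± 0.26, adjusted p = 0.00795).

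In Arid2-labelled against wild-type libraries, 0 genes of these 5 lists passed edgeR's test, with 10 of the 57 tested at an unadjusted p under 0.05, against 14.9% of all genes. The smallest p of each list belonged to Lepre1 (-0.51 ± 0.16, adjusted p = 0.181), Adamts2 (-0.28 ± 0.13, adjusted p = 0.360), Itga2 (0.86 ± 0.39, adjusted p = 0.348), Lum (-0.99 ± 0.23, adjusted p = 0.0951) and Ctgf (-1.03 ± 0.26, adjusted p = 0.118). With the GC trend removed, 0 genes of the 5 lists passed in Smarcb1-labelled against wild-type libraries, and likewise 0 with the parathyroid covariate. With the GC trend removed, the values of Leprel2 against wild type (0.053, adjusted p = 0.882) and of Bmp1 (0.052, adjusted p = 0.787) and Pcolce (0.012, adjusted p = 0.962) against the Arid2-labelled group changed sign. Of the 22 results of these lists past the threshold, 2 passed in all 9 fits with 1 library left out, Scx against wild type and Ctgf against the Arid2-labelled group.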

How the data were processed

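RNA of mouse thyroids was made into libraries with a TruSeq kit, per the labels' protocols, which do not state the use of strand. The authors deposited raw counts per gene for 9 libraries, with no normalization and no row without a gene name. Per the submitters' processing notes, the tools were DESeq2, HTSeq 0.6.1 and STAR 2.4 and the build was mm9, without their roles. Of 33924 genes, 8005 had 0 counts in every library. Within groups, no pair of libraries agreed within sampling noise, with chi-square values of 47.6 to 122 per degree of freedom.

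Groups came from the genotype labels. The test was edgeR 4.0.16 with its quasi-likelihood F test, run in R 4.3.3 with limma 3.58.1. TMM gave the scaling and filterByExpr the filter, and 1 model with a mean per group was fitted to the 9 libraries, leaving 6 residual degrees of freedom. It kept 17079 genes, with a common dispersion of 0.0776 and prior degrees of freedom of 3.19. A gene passed at a Benjamini-Hochberg adjusted p under 0.05 over all genes tested. The standard error of a fold change is its size over the root of its F statistic. Levels are CPM scaled by TMM, and levels per kilobase divide them by the longest transcript of GENCODE vM21, protein-coding where there is one. That annotation is on GRCm38, a newer build than mm9, and gave GC content for 97.3% of the genes tested. Chain ratios were compared by exact permutation. Simulated data with 100 genes changed 2-fold and 100 changed 4-fold gave 51 and 92 recovered and 8 false calls for Smarcb1-labelled against wild-type libraries, over 16905 genes. Recovered were 45 and 86 for Arid2-labelled against wild-type libraries, and 43 and 90 for Smarcb1-labelled against Arid2-labelled libraries. The changed genes had a mean above 1 CPM, and these simulated data held no GC trend and no difference in neighbouring tissue, unlike the real libraries.

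The members and all gene lists were chosen with earlier results of these data known. Of 141 list entries, 140 were found. Values are given for members past the threshold in any comparison, the 10 highest per kilobase, the type IV chains, Col2a1, Col9a1 and Col11a1. Of the pathway lists, up to 4 genes past the threshold per list and comparison are named, or the 1 with the smallest p. Other genes named (Col5a2, Col6a3, Col6a5's neighbours, Acan, Gsn and single markers) were chosen after their values were seen. Alternatives were DESeq2 1.42.0 size factors and Wald test, upper-quartile scaling, library totals, 2 other filters, limma-voom, a fit of 6 libraries, a robust spread, a stricter threshold, removal of each library's GC trend, a parathyroid covariate, thinning to the smallest total count, and leaving out libraries.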

Additional observations from a re-analysis of the deposited data

How the results depend on the processing

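The count of collagen genes past the threshold depended on the processing. In Arid2-labelled against wild-type libraries it was 0, and became 1 with DESeq2 size factors, upper-quartile scaling, a filter at 1 CPM in 3 libraries, limma-voom or a robust spread, 2 with only the 6 libraries compared or the GC trend removed, and 4 with the DESeq2 Wald test. Of all genes, these settings in that order gave 0.597%, 0.556%, 0.77%, 0.591%, 0.755%, 1.19%, 1.43% and 5.2%, against 0.556% in the main fit. Leaving out 1 library gave 0 to 2 collagen genes, beside 0.0286% to 0.957% of all genes. In Smarcb1-labelled against wild-type libraries, 7 became 12 with the Wald test, 3 with 6 libraries, 0 with the GC trend removed, 1 with the parathyroid covariate, 12 without the 2 libraries with Rag1 above 10 CPM and 1 at an adjusted p under 0.01. Of all genes, these settings in that order gave 16.3%, 2.94%, 1.74%, 1.15%, 12.6% and 1.12%, against 7.9% in the main fit. Leaving out 1 library gave 1 to 12 collagen genes, beside 1.97% to 14.7% of all genes. In Smarcb1-labelled against Arid2-labelled libraries, 14 became 8 with the GC trend removed and 2 with the parathyroid covariate. The count was 4 at an adjusted p under 0.01 and 4 to 17 without 1 library. Of all genes, these settings in that order gave 6.02%, 0.849%, 1.9% and 2.27% to 25.5%, against 16.3% in the main fit. Of the 21 results past the threshold, 0 changed sign in any of the 23 alternatives, 3 passed with the parathyroid covariate and 8 with the GC trend removed, and the cause was not tested. The log2 ratio of Col1a1 to Col1a2 in Arid2-labelled against wild-type libraries was 0.06, with -0.027 to 0.10 when 1 library was left out, negative only without Arid2-labelled library 3.

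Counts over all genes moved with them. The 95 genes of Arid2-labelled against wild-type libraries became 888 with the Wald test, 201 with 6 libraries, 245 with the GC trend removed, 56 without the 2 libraries, 8 at 0.01 and 5 to 167 without 1 library. The 1349 of Smarcb1-labelled against wild-type libraries became 2777, 486, 297, 2166 and 192 in the same order, 197 with the parathyroid covariate and 344 to 2538 without 1 library. The 2779 of Smarcb1-labelled against Arid2-labelled libraries became 4337 with the Wald test, 1348 with 6 libraries, 1029 with the GC trend removed, 145 with the parathyroid covariate, 324 at 0.01 and 395 to 4411 without 1 library. Where a group was left with 2 libraries, its spread was taken from the fit of all groups. No paired analysis was possible because the labels carry no replicate number shared between groups. With 3 libraries a group, chain ratios cannot pass 0.05.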

Other observations

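A few low collagen genes stood out in single libraries. Col17a1, of epithelial hemidesmosomes, had 0.102, 3.51 and 0.460 CPM in Smarcb1-labelled libraries, 0.825, 1.002 and 2.96 CPM in Arid2-labelled libraries and 0.819, 1.48 and 0.831 CPM in wild-type libraries. Col7a1, of anchoring fibrils, had 4.43, 13.5 and 6.96 CPM in Smarcb1-labelled libraries, 12.2, 16.9 and 22.4 CPM in Arid2-labelled libraries and 14.7, 17.9 and 12.3 CPM in wild-type libraries. Both epithelial collagens were thus highest in their group in Smarcb1-labelled library 2 and in Arid2-labelled library 3. Col22a1, of muscle-tendon junctions, had 0.534, 0.362 and 0.108 CPM in Smarcb1-labelled, 0.583, 0.595 and 1.35 CPM in Arid2-labelled and 0.243, 0.114 and 0.682 CPM in wild-type libraries. The summed level of 8 skeletal muscle markers was 290, 968 and 89.2 CPM in Smarcb1-labelled libraries, 1016, 395 and 1668 CPM in Arid2-labelled libraries and 988, 19.9 and 408 CPM in wild-type libraries. Col10a1, of growth-plate cartilage, had 3, 10 and 4 counts in Smarcb1-labelled libraries, 18, 21 and 67 in Arid2-labelled libraries and 3, 1 and 15 in wild-type libraries. Its highest library, Arid2-labelled library 3, was also the one with 81 counts of Col2a1.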
